A study of Mus musculus with 21 samples.

Results

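Transcript levels of the Id proteins (Id1, Id2 and Id3) and of the E proteins (Tcf3, Tcf4 and Tcf12) were followed through early erythroid and myeloid differentiation in mouse bone marrow. These 6 genes were chosen by name, and their probes were found through the RefSeq accession that the array annotation gives each probe. They account for 11 of the 41174 probes that were not controls, and for 6 of the 18217 genes named on the array. Every one of the 11 probes passed the filter on dim probes. Id3 had 1 probe and each of the others had 2, of which the brighter one is reported, with the other as a check.

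Primary haematopoietic cells of C57BL/6 mice were sorted from bone marrow into 7 fractions, and total RNA of each sample was hybridised to its own 1-colour array, which gave 21 arrays, 3 for each fraction. The labels state no treatment, genotype, age or sex, and give every fraction the same strain and tissue. KLS cells, the multipotent starting point, were lineage-negative, Kit-positive and Sca1-positive. Per the labels, PreMegE, CFUe, PreGM and GMP were all sorted as lineage-negative, Kit-positive and Sca1-positive cells too. PreMegE cells, which give rise to megakaryocytes and red cells, were CD150-positive and negative for CD105 and for the Fc gamma receptors. CFUe (erythroid colony-forming cells) and PreGM (early granulocyte and macrophage precursors) carry the same phenotype in the labels, negative for CD150, CD105 and the Fc gamma receptors. GMP (granulocyte and macrophage progenitors) were CD150-negative and positive for the Fc gamma receptors. Ter119 cells, red cell precursors, were positive for CD71 and Ter119, and Mac1Gr1 cells, maturing myeloid cells, for Mac1 and Gr1. The design gives 2 branches of 3 steps, an erythroid one from KLS through PreMegE and CFUe to Ter119, and a myeloid one from KLS through PreGM and GMP to Mac1Gr1. Nothing in the labels ties arrays to animals or cultures, so the p-values measure the spread between these samples, part of which may be technical.

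E proteins are transcription factors of the basic helix-loop-helix family that bind the E-box motif as dimers, either with each other or with lineage-restricted partners such as TAL1 in erythroid precursors. Id proteins hold the helix-loop-helix domain without the basic region that contacts DNA, so that a dimer of an Id protein and an E protein cannot bind. E proteins are best known for driving lymphoid development, and Id genes are known targets of BMP and SMAD signalling and are needed at particular points by innate lymphoid, dendritic and erythroid cells. An array reads the transcript and not the protein or the dimer.

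Levels are given as log2 intensity relative to the 75th percentile of the same array, so that 0 is the 75th percentile and a difference of 1 is 2-fold. Levels of a gene were set against each other between fractions only, since probes differ in brightness. A change was called at an adjusted p under 0.05 (limma, Benjamini-Hochberg over 29526 probes) together with at least 2-fold. In bulk samples, fewer cells carrying a transcript and less of it per cell cannot be told apart.

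Several arrays stood apart from their labels in ways that bear on these genes. For all 21 arrays the closest other array came from the same fraction. The Ter119 arrays, which held 11 of 11 erythroid markers well above background, also held all 12 granulocytic, 9 B cell, 10 plasmacytoid dendritic cell and 10 T and NK cell markers well above background on every array. Their summed granulocytic level (log2 of the sum of the markers' linear levels) lay between 12.21 and 12.54, against 12.42 to 12.58 in Mac1Gr1 and 2.39 to 5.35 in CFUe. The KLS arrays held 12 of 12 macrophage markers, with a summed level of 4.80 to 6.28 against -0.25 to 0.68 in PreMegE. Among the antigens used for sorting, Ly6a (which encodes Sca1) was at 2.57 ± 0.17 (SD, n = 3) in KLS, at -3.14 ± 0.22 in PreMegE, and in CFUe rose clear of background on a single array, although the labels give all of these fractions as Sca1-positive. Eng (which encodes CD105) was highest in CFUe, at 2.47 ± 0.12, and stood at 1.68 ± 0.03 in PreGM, both labelled CD105-negative. Kit and Ly6g had no matched probe. Xist was bright on the GMP and Mac1Gr1 arrays, on CFUe replicates 1 and 2 and on PreGM replicates 1 and 2, whereas Y-linked transcripts were bright on the other arrays, so that this difference follows the fractions except within CFUe and PreGM.

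The 250 bases upstream of the annotated start are shown for Id2 and Id3, because these genes parted at the first erythroid step. Id2 was called lower there, and Id3, at 1.04 (SE 0.51, limma, adjusted p = 0.152), was not called. The Id3 arrays of PreMegE and KLS did not overlap. With these fractions fitted alone Id3 was called higher (1.04, SE 0.17, adjusted p = 0.00644). The sequences are those of RefSeq on the assembly GRCm38.p6, for Id2 on the minus strand at chr12:25096093-25096342 and for Id3 on the plus strand at chr4:136143572-136143821. They run 5′ to 3′ and end at the base before the start, with matches in capitals. The letters searched on both strands were CANNTG (any E-box), AGATAA for GATA factors, GGAAGTG for ETS factors and GGCGCC for SMAD proteins.
Id2: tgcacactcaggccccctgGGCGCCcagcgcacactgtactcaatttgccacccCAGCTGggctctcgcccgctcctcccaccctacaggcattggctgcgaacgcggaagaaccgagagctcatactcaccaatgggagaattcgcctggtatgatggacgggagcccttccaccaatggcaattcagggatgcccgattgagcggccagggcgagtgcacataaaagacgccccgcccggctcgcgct
Id3: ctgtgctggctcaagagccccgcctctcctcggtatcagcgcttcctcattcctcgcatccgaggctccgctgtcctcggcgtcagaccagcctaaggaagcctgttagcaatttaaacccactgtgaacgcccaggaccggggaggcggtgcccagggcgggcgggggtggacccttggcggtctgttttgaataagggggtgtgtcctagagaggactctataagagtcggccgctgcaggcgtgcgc
The Id2 window held 1 E-box, whose first base lay at -196 counted from the start, and 1 match to GGCGCC, first base at -231. The Id3 window held none of the 4 motifs, and neither window matched the GATA or the ETS letters. Over all 32851 promoters of the same length, 66.2% held an E-box, 9.99% the GATA, 8.55% the ETS and 9.59% the SMAD letters. G and C made up 62.8% of either window. The single E-box in the Tcf3 window had its first base at -54. Of the 3 annotated Tcf12 windows, 2 held 1 E-box each. Promoter entries were matched for 4 of the 6 genes, Id2, Id3, Tcf3 and Tcf12.

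Id1 was lowest in CFUe, far below the other fractions. The KLS arrays read 0.65, 0.38 and 0.37, and the PreMegE arrays -0.52, -0.22 and 0.02. The CFUe arrays read -2.59, -6.53 and -6.52, and only the first of these was well above background. The Ter119 arrays read -0.03, -0.57 and 0.05, close to those of PreMegE. On the myeloid side the PreGM arrays read -0.27, 0.08 and -1.05, the GMP arrays -0.78, -1.07 and -0.75, and the Mac1Gr1 arrays 1.70, 1.64 and 1.58. Every CFUe array was thus below every array of the other fractions, and every Mac1Gr1 array above. Id1 fell by 4.97 ± 0.69 (SE) from PreMegE to CFUe (adjusted p = 1.23e-05), and was 5.03 ± 0.69 higher in Ter119 than in CFUe (adjusted p = 3.86e-06). Both values rest on the same 3 CFUe arrays. The other Id1 probe, dim on every CFUe array (-6.28, -6.47 and -6.90), gave at least 28-fold lower in CFUe than in PreMegE, at least 28.2-fold lower than in Ter119, at least 45.3-fold lower than in KLS and at least 17.2-fold lower than in GMP. The 2 probes disagreed on CFUe replicate 1. Mac1Gr1 exceeded GMP by 2.51 ± 0.69 (adjusted p = 0.00337), but with spike-in scaling by 0.47 (adjusted p = 0.55).

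Id2 fell one step earlier on the erythroid branch. Its KLS arrays read 1.53, 0.90 and 0.34, whereas the PreMegE arrays read -2.79, -2.89 and -3.01. It fell by 3.82 ± 0.41, or 14.1-fold (adjusted p = 1.62e-06). The PreGM arrays, at 0.42, 0.36 and 0.38, lay within the KLS range. Between the first fractions of either branch, PreMegE minus PreGM was -3.28 ± 0.41, a 9.72-fold difference (adjusted p = 1.03e-05). In CFUe the arrays read -4.46, -4.06 and -2.11, of which the first was not well above background, and the change from PreMegE was not called (-0.65, 95% interval -1.51 to 0.21). Without CFUe replicate 3 that change was -1.36 (adjusted p = 0.000124) and was called. The GMP arrays read -0.55, -0.74 and -0.83.

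Id2 rose at the last step of both branches. The Ter119 arrays read 2.38, 2.37 and 2.37, which was 5.92 ± 0.41 above CFUe, or 60.4-fold (adjusted p = 6.04e-10). The Mac1Gr1 arrays read 3.42, 3.50 and 3.52, which was 4.18 ± 0.41 above GMP, or 18.2-fold (adjusted p = 5.63e-08). Neither pair of fractions overlapped. The granulocytic markers, at 12.21 to 12.54 in Ter119, rose with Id2 from CFUe to Ter119, and their part in this rise was not tested. Ter119 minus Mac1Gr1 was -1.11, but with the slide as a block this difference was -0.03.

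Id3 followed another course, with its highest level in Ter119 and its lowest in GMP. The KLS arrays read -0.91, -0.97 and -0.56, the PreMegE arrays 0.04, 0.44 and 0.21, and the CFUe arrays -2.21, -1.56 and -2.01. From PreMegE to CFUe, Id3 fell by 2.15 ± 0.51 (adjusted p = 0.002). The Ter119 arrays, at 0.36, 0.82 and 0.63, were 2.53 ± 0.51 above CFUe (adjusted p = 0.000253), without overlap at either step, although with scaling to the spike-in RNAs the second of these changes was 1.15 and no longer called. On the myeloid side the PreGM arrays split, at 0.66, 0.55 and -2.27. The low one was PreGM replicate 3, the only array of that fraction with Y-linked transcripts and without Xist. The GMP arrays read -2.42, -2.54 and -2.09, so that PreGM and GMP overlapped.

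Id3 was 3.99-fold lower in GMP than in PreGM (SE 0.51 on the log2 scale, adjusted p = 0.00785), and this call depended on the arrays and on the setting. It was -1.49 (adjusted p = 0.0514) without PreGM replicate 1 and -1.55 (adjusted p = 0.0516) without PreGM replicate 2. It was also lost when slides entered as a block (-1.96, adjusted p = 0.075), with these fractions fitted alone (adjusted p = 0.132) and with spike-in scaling (-0.98, adjusted p = 0.105). Without PreGM replicate 3 the excess of PreGM over KLS, which was 0.46 with all arrays, was 1.42 (adjusted p = 0.000312). Among the arrays with Xist, GMP minus PreGM was -2.95 (3 arrays against 2), and among those with Y-linked transcripts PreGM minus KLS was -1.45 (1 against 3), both with no test. The Mac1Gr1 arrays read -1.44, -1.02 and -0.88, which was 1.24 ± 0.51 above GMP (adjusted p = 0.0372). This call was lost when GMP replicate 1 or 2 or Mac1Gr1 replicate 2 or 3 was left out (adjusted p = 0.0791, 0.0936, 0.0809 and 0.0987), when the Ter119 arrays were left out of the fit (adjusted p = 0.0505), when slides entered as a block (1.15, adjusted p = 0.209), with quantile scaling (adjusted p = 0.0609), with the authors' normalized values (adjusted p = 0.0575), with no filter (adjusted p = 0.051), and with spike-in scaling, where its sign turned (-0.80).

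**Figure D1:**
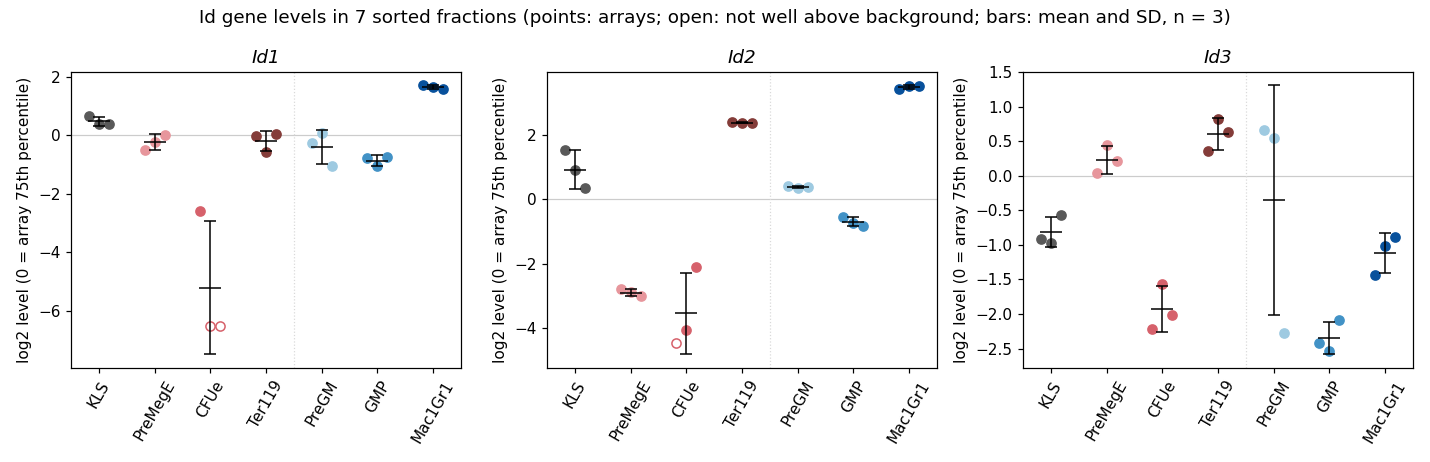
Level of Id1, Id2 and Id3 on each array (log2, 0 is the 75th percentile of the array) in the 7 fractions, erythroid in red and myeloid in blue, with the mean and SD of 3 arrays and open points for arrays not well above background. Id1 was lowest in CFUe (mean -5.21), Id2 was low in PreMegE (-2.90) and CFUe (-3.54), and Id3 was low in CFUe (-1.93) and GMP (-2.35) with PreGM split.

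Among the E proteins, Tcf3 (which encodes E2A, the E12 and E47 proteins) rose along the erythroid branch as far as CFUe. Its KLS arrays read 1.81, 1.80 and 2.05, the PreMegE arrays 2.30, 2.45 and 2.43, the CFUe arrays 3.18, 3.27 and 3.11, and the Ter119 arrays 2.87, 2.85 and 2.66. The PreGM arrays read 2.03, 1.90 and 2.0, the GMP arrays 1.70, 1.84 and 1.49, and the Mac1Gr1 arrays 0.82, 1.06 and 0.96. CFUe was above every other fraction and Mac1Gr1 below, without overlap. CFUe exceeded KLS by 1.30 ± 0.11 (adjusted p = 2.9e-08) and GMP by 1.51 ± 0.11 (adjusted p = 5.48e-09). The single steps were smaller, from KLS to PreMegE 0.51 ± 0.11 (adjusted p = 0.00261) and from PreMegE to CFUe 0.79 ± 0.11 (adjusted p = 1.61e-05), both under 2-fold and so not called. With spike-in scaling the excess of CFUe was 0.33 over KLS and 0.13 over GMP, neither called, and with quantile scaling the excess over KLS was 0.90.

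Tcf4 (which encodes E2-2, the E protein of plasmacytoid dendritic cells) was highest in KLS and lowest in Mac1Gr1. Its KLS arrays read 1.94, 1.91 and 1.96 and its PreGM arrays 1.96, 1.76 and 1.59. The PreMegE arrays read 1.08, 1.18 and 1.14, the CFUe arrays 0.70, 0.75 and 0.98, and the Ter119 arrays 1.77, 1.94 and 1.54. The GMP arrays read 0.76, 0.73 and 0.37 and the Mac1Gr1 arrays -0.43, 0.02 and 0.13. Tcf4 fell by 1.15 ± 0.16 from PreGM to GMP (adjusted p = 3.36e-05) and by 1.12 ± 0.16 from KLS to CFUe (adjusted p = 7.41e-06), without overlap. The other Tcf4 probe was dim and correlated with the brighter one at r = 0.619 over 21 arrays. It gave -0.05 from PreGM to GMP and -0.89 from KLS to CFUe, neither called. With spike-in scaling the change from PreGM to GMP was -0.13.

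Tcf12 (which encodes HEB) lay between 0.50 and 1.56 in the progenitor fractions and fell in the terminal ones. Its arrays read 0.91, 0.76 and 0.84 in KLS, 1.17, 0.94 and 0.76 in PreMegE, and 1.34, 1.56 and 1.17 in CFUe. The PreGM arrays read 0.92, 0.92 and 0.61, and the GMP arrays 0.63, 0.50 and 0.66. The Ter119 arrays read 0.10, 0.41 and 0.22, which was -1.11 ± 0.19 from CFUe (adjusted p = 4.09e-05). The Mac1Gr1 arrays read -2.38, -1.53 and -1.61, which was -2.44 ± 0.19 from GMP, or 5.41-fold lower (adjusted p = 2.71e-09). Either terminal fraction was below its progenitor without overlap. The fall into Ter119 was under 2-fold with quantile scaling (-0.94) and with the authors' values (-0.96). It was also under 2-fold by the mean of both Tcf12 probes (-0.96) and by the other probe (-0.80).

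**Figure D2:**
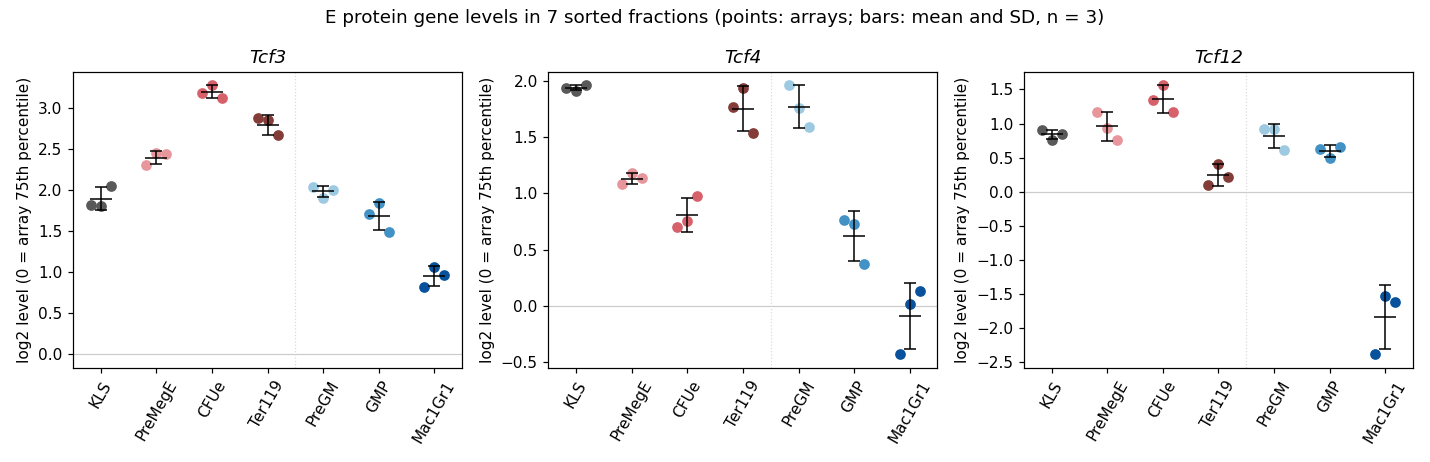
Level of Tcf3, Tcf4 and Tcf12 on each array (log2, 0 is the 75th percentile of the array) in the 7 fractions, with the mean and SD of 3 arrays. Tcf3 peaked in CFUe (mean 3.19), Tcf4 was highest in KLS (1.94), and all 3 genes were lowest in Mac1Gr1 (0.95, -0.09 and -1.84).

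The range of the fraction means was 130-fold for Id2, from CFUe (well above background on 2 of 3 arrays) to Mac1Gr1, and 7.74-fold for Id3, from GMP to Ter119. Id1 ran from CFUe to Mac1Gr1 too, but its CFUe level was not well above background on 2 of 3 arrays and gives no exact fold. For the E proteins it was 4.73-fold for Tcf3, 4.08-fold for Tcf4 and 9.17-fold for Tcf12. In the order of the fraction means, 11 of the 36 pairs of neighbours differed at an adjusted p under 0.05. Between the same pairs of fractions 25.7% to 76.5% of all probes did. Neighbours were picked as the closest by the same levels, which was not done for all probes, so these shares cannot be compared. For Id1 the order was Mac1Gr1, KLS, Ter119, PreMegE, PreGM, GMP and CFUe, and GMP and CFUe were the neighbours that differed (adjusted p = 4.73e-05). For Id2 the order was Mac1Gr1, Ter119, KLS, PreGM, GMP, PreMegE and CFUe. In it KLS and PreGM, PreGM and GMP, and PreMegE and CFUe did not pass the test (limma, adjusted p = 0.378, 0.0589 and 0.2). The Id2 arrays of PreGM and GMP did not overlap, and with these fractions fitted alone the change was called (-1.09, adjusted p = 0.00181). For Id3, in the order Ter119, PreMegE, PreGM, KLS, Mac1Gr1, CFUe and GMP, no pair of neighbours passed the test (limma, adjusted p from 0.161 to 0.602). For Tcf3 the order was CFUe, Ter119, PreMegE, PreGM, KLS, GMP and Mac1Gr1, in which PreGM and KLS, and KLS and GMP, did not differ beyond their spread. For Tcf4 the order was KLS, PreGM, Ter119, PreMegE, CFUe, GMP and Mac1Gr1, and the neighbours that differed were Ter119 and PreMegE, and GMP and Mac1Gr1. For Tcf12 the order was CFUe, PreMegE, KLS, PreGM, GMP, Ter119 and Mac1Gr1, and Ter119 and Mac1Gr1 were the neighbours that differed (adjusted p = 5.17e-08).

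Step by step, the first erythroid step (PreMegE against KLS) called 1 of 6 genes, Id2, against 12.4% of all probes tested. The first myeloid step (PreGM against KLS) called none by limma, none at an unadjusted p under 0.05, against 8.63% of all probes. The second erythroid step (CFUe against PreMegE) called 2 of 6, Id1 and Id3, both lower, against 24.7% of all probes, 14.7% lower. The second myeloid step (GMP against PreGM) called 2 of 6, Id3 and Tcf4, both lower, against 10.4% of all probes, 6.36% lower. The third steps called 4 of 6 genes each, the 3 Id genes higher and Tcf12 lower. Of all probes 57.2% were called in Ter119 against CFUe (29.2% higher, 28.0% lower) and 56.7% in Mac1Gr1 against GMP (29.1% higher, 27.6% lower). The count at these steps is thus not far from that of all probes. In Ter119 against CFUe Tcf4 was at 0.94 (limma, adjusted p = 3.27e-05), under 2-fold. With quantile scaling and with the authors' values Tcf4 was called higher there (1.21 and 1.18), and Tcf12 was not called (-0.94 and -0.96).

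Across 2 steps, CFUe differed from KLS in 4 of 6 genes (36.3% of all probes), with Id1 at -5.68, Id2 at -4.46, Tcf4 at -1.12 and Tcf3 at 1.30. The Id1 value is not an exact size, because CFUe replicates 2 and 3 were dim for this gene. By its other probe Id1 was at least 45.3-fold lower in CFUe. GMP differed from KLS in 3 of 6 (21.7% of all probes), with Id2 at -1.62 (adjusted p = 0.00332), Id3 at -1.54 (0.0202) and Tcf4 at -1.32 (2.74e-06). Id1 stood at -1.34 (adjusted p = 0.126), and was called lower by its other probe (-1.40, adjusted p = 0.000331), by the mean of both probes (-1.37, adjusted p = 0.0136), with normexp (-1.22, adjusted p = 0.000222) and with the 2 fractions fitted alone (adjusted p = 0.000917). Tcf4 was not called by its other probe (-0.77) or with spike-in scaling (-0.92), nor Id3 with spike-in scaling (-1.14). Leaving out KLS replicate 3, GMP replicate 1 or GMP replicate 2 also lost the Id3 call (limma, adjusted p = 0.065, 0.0534 and 0.0613). With the slide as a block, Id2 and Id3 were no longer called in that comparison (-0.94 and -1.67). The GMP arrays all carried Xist and the KLS arrays did not, and with these transcripts as a block Id2 was at -0.56 (adjusted p = 0.418). CFUe replicate 3 carried Y-linked transcripts as the KLS arrays did, and CFUe minus KLS on these arrays was -3.03 for Id2, with no test. Id1 was not well above background on that CFUe array, by either probe.

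**Figure D3:**
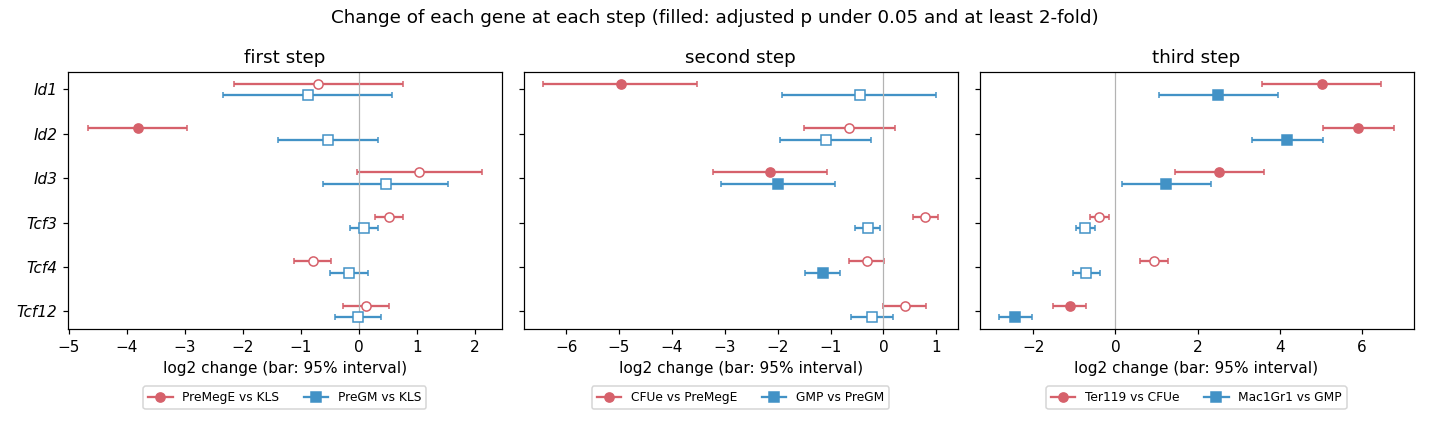
Log2 change of each gene at each step with its 95% interval, erythroid in red circles and myeloid in blue squares, filled where called. Id2 alone was called at the first erythroid step (-3.82), Id1 parted from the other genes at the second (-4.97), and the 3 Id genes rose at the third step of either branch while Tcf12 fell (-1.11 and -2.44). Id1 changes that involve CFUe are not exact in size, because CFUe replicates 2 and 3 were dim for Id1.

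The branches were then set against each other. PreMegE differed from PreGM in 1 of 6 genes, Id2 (12.0% of all probes called). At an adjusted p under 0.05 with no minimum fold, by which 27.5% of all probes passed, Tcf3 was also higher in PreMegE (0.42 ± 0.11, adjusted p = 0.0102) and Tcf4 lower (-0.64 ± 0.16, adjusted p = 0.00508). CFUe differed from GMP in 3 of 6 (26.3% of all probes), with Id1 lower in CFUe (at least 17.2-fold by its other probe), Id2 7.16-fold lower and Tcf3 2.85-fold higher. Ter119 differed from Mac1Gr1 in 6 of 6 (41.9% of all probes). Id1 (-1.82) and Id2 (-1.11) were lower in Ter119, and Id3 (1.72), Tcf3 (1.85), Tcf4 (1.84) and Tcf12 (2.08) were higher. The Id1 and Id2 calls of this comparison were each lost when single arrays were left out. For Id1 the adjusted p was 0.0829 without Ter119 replicate 2 and 0.0618, 0.0582 and 0.0517 without Mac1Gr1 replicates 1, 2 and 3. For Id2 it was 0.0509, 0.0517 and 0.0517 without Ter119 replicates 1, 2 and 3, and 0.054 and 0.0538 without Mac1Gr1 replicates 2 and 3. The Id2 call was also lost with quantile scaling (-0.69, adjusted p = 0.125) and by the other probe (adjusted p = 0.0526). With the authors' values Id2 was at -0.71 (adjusted p = 0.125). The Id3 call was lost with spike-in scaling (0.99, limma, adjusted p = 0.118). With sex-chromosome transcripts as a block Id1 was at -0.37 (adjusted p = 0.748). The Ter119 arrays all carried Y-linked transcripts and the Mac1Gr1 arrays Xist, so fraction and these transcripts cannot be told apart here.

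Whether a step differed between the branches was tested as an interaction in the same fit, at an adjusted p alone. At the second step 3 of 6 genes differed (34.3% of all probes). Id1 fell by 4.52 ± 0.97 more on the erythroid side (adjusted p = 0.00165). The size of this Id1 difference, and of the one at the third step, is not exact, because CFUe replicates 2 and 3 were dim for Id1. The Tcf3 change was higher on the erythroid than on the myeloid side by 1.09 ± 0.16 (adjusted p = 4.87e-05). For Tcf4 the difference was 0.83 ± 0.22 (adjusted p = 0.00722), with changes of -0.32 on the erythroid and -1.15 on the myeloid side. With spike-in scaling the signs of the Tcf3 and Tcf4 differences turned (-0.44 and -0.70), neither passing the test. At the third step 4 of 6 differed (55.0% of all probes), all in the same sense, with Id1 at 2.52 (adjusted p = 0.0368), Id2 at 1.73 (0.0172), Tcf4 at 1.65 (7.53e-06) and Tcf12 at 1.32 (0.000459). The Id1 difference was lost without CFUe replicate 2 (1.86, adjusted p = 0.109) or 3 (1.87, adjusted p = 0.106) and without single arrays of the other fractions, when slides entered as a block (1.52, adjusted p = 0.32), with quantile scaling (adjusted p = 0.052) and with normexp (0.40, adjusted p = 0.354). The Id2 difference was lost without CFUe replicate 1 (1.27, adjusted p = 0.0525), with normexp (0.48, adjusted p = 0.248), by the other probe (1.54, adjusted p = 0.0811) and with sex-chromosome transcripts as a block (1.02, adjusted p = 0.116). The Id3 difference at the second step, -0.16 with all arrays, was 0.80 (adjusted p = 0.0498) without PreGM replicate 3.

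Markers of other cell types moved with some of these levels. In KLS the summed macrophage level was 6.28, 5.45 and 4.80 on replicates 1, 2 and 3, in the same order as the Id2 levels of 1.53, 0.90 and 0.34. From KLS to PreMegE, where Id2 fell, 12 of 12 macrophage markers were called lower (8.86% of all probes lower). From KLS to PreGM, where Id2 was not called, 12 of 12 were called lower as well (6.52% of all probes lower). PreMegE and PreGM, between which Id2 differed 9.72-fold, had summed macrophage levels of -0.25 to 0.68 and 0.48 to 0.73. In CFUe the granulocytic sum was 2.54, 2.39 and 5.35 on replicates 1, 2 and 3, and the highest Id2 level (-2.11) was on replicate 3. Id1 on that array (-6.52) was as low as on replicate 2. The part of macrophage and granulocytic cells in these Id1 and Id2 levels was not tested.

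At the third erythroid step, where the 3 Id genes were called higher, 12 of 12 granulocytic, 9 of 9 B cell, 9 of 10 T and NK cell, 9 of 10 plasmacytoid dendritic cell and 9 of 12 macrophage markers were called higher too. Of all probes, 29.2% were called higher and 28.0% lower at this step. The B cell sum was 7.24 to 7.71 in Ter119, 5.03 to 5.79 in Mac1Gr1 and 0.40 to 1.91 in CFUe. The part of these other transcripts in the Ter119 levels of Id1, Id2, Id3 and Tcf4 was not tested. Of the 11 erythroid markers tested, 6 were called higher and 1 lower in Ter119 than in CFUe.

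**Figure D4:**
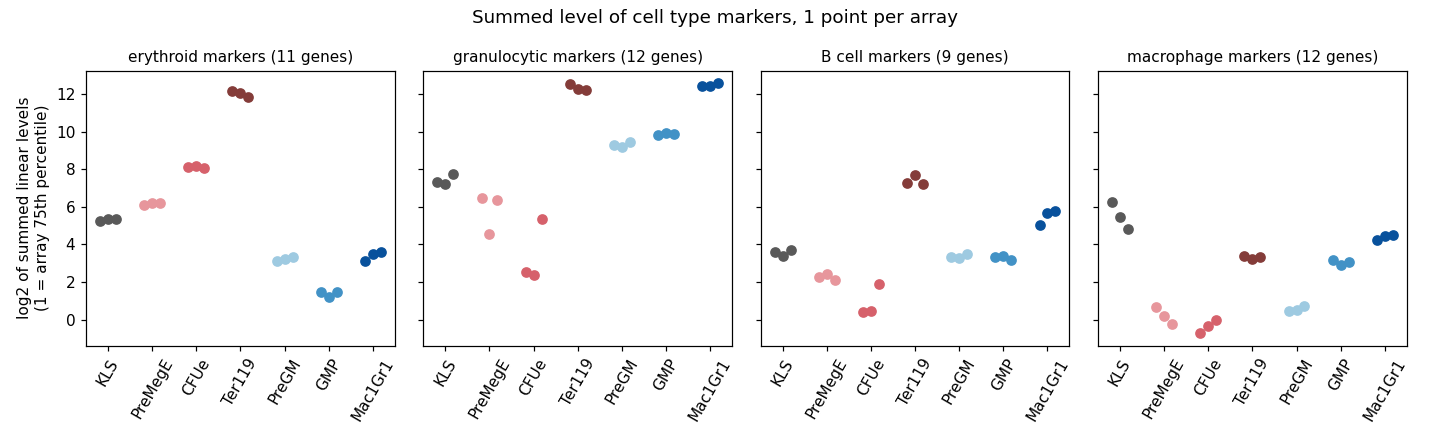
Summed level of the erythroid, granulocytic, B cell and macrophage markers on each array (log2 of the sum of linear levels, in units of the array 75th percentile). Ter119 was high for erythroid (11.84 to 12.16), granulocytic (12.21 to 12.54) and B cell markers (7.24 to 7.71) together, and KLS was highest for macrophage markers (4.80 to 6.28).

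The 6 genes varied together in a few pairs. Across the 21 arrays, which fall into 7 fractions of 3 and so are not independent points, Id1 and Id2 correlated at r = 0.67 and Tcf3 and Tcf12 at r = 0.72. Id1 and Tcf3 ran against each other (r = -0.71), as did Id2 and Tcf12 (r = -0.76), Id1 and Tcf12 (r = -0.60), and Id2 and Tcf3 (r = -0.60). Id3 followed neither group closely, with r = 0.23 to Id2, 0.36 to Id1 and 0.52 to Tcf4. The correlations of Id1 include CFUe arrays on which it was not well above background. All of these values are given as a description.

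Of 14118 other genes compared over the 21 arrays, those most like Id1 in level were Il15 (an interleukin, Pearson r = 0.95), Hgf (hepatocyte growth factor, 0.93) and Map3k14 (a kinase of the NF-kappaB pathway, 0.91). By rank (Spearman) these 3 correlated with Id1 at 0.827, 0.831 and 0.866. Most like Id2 were Icosl (a ligand of the costimulator ICOS, 0.977), Sh3bp5 (0.977) and Itgax (which encodes CD11c, 0.972). Among those most like Id3 were Mafk (a small MAF protein, 0.845) and Slc15a2 (a peptide transporter, 0.831), both less alike than the genes named for the other members. Most like Tcf3 were Iba57 (0.965), Sppl2b (0.964) and Ppm1l (0.961), most like Tcf4 were Dcun1d1 (0.924), Sesn1 (0.913) and Capn5 (0.911), and most like Tcf12 were Cep290 (a centrosomal protein, 0.98), Ipp (0.979) and Zcchc3 (0.979).

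The BMP and TGF-beta pathway, with its receptors and SMAD proteins, was measured through 18 of 20 genes. A link of these genes to the Id levels was not tested. From KLS to CFUe, 12 of the 18 were called lower and none higher, where 19.1% of all probes were lower, with a median of -1.58 (-1.28 with dim genes set to their bound) against 0.23 over all probes. Smad1, which carries BMP signals, fell by 4.0 ± 0.28, Smad6, an inhibitory SMAD and itself a BMP target, by 3.10 ± 0.24, and the TGF-beta receptor Tgfbr2 by 2.51 ± 0.18. Acvrl1, a type I receptor, was well above background in KLS and on no CFUe array, at least 2.01-fold lower. Of the 18, 8 were called lower at the step from PreMegE to CFUe, at which Id1 and Id3 fell and 14.7% of all probes were lower, including Smad1 (-3.33), Tgfbr2 (-2.26) and Smad6 (-2.02). At the first erythroid step, at which Id2 fell, 4 were lower and 1 higher (8.86% of all probes lower). The count of 12 in CFUe was 13 with quantile scaling and 14 with spike-in scaling.

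In GMP against PreGM 3 of the 18 were lower, but with spike-in scaling 5 were higher and none lower. In Ter119 against CFUe 7 of 18 were higher and none lower, where 29.2% of all probes were higher and 28.0% lower, with a median of 0.76, and with spike-in scaling 3 were higher and 8 lower. The largest rises were those of Acvrl1 (at least 15.6-fold), Smad6 (5.62 ± 0.24, well above background on just 1 CFUe array) and Bmpr1a, a BMP receptor (at least 4.24-fold). Mac1Gr1 against GMP had 8 higher and 5 lower, against 29.1% and 27.6% of all probes, and 3 higher and 10 lower with spike-in scaling. Bmpr1a (at least 42.6-fold), Acvrl1 (7.81 ± 0.51, on 1 of 3 GMP arrays well above background) and Smad6 (5.67 ± 0.24) rose there too, as did Tgfbr2 (2.69 ± 0.18). Between the terminal fractions, 9 of 18 were lower in Ter119 than in Mac1Gr1 and none higher (19.9% of all probes lower), with a median of -1.02.

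**Figure D5:**
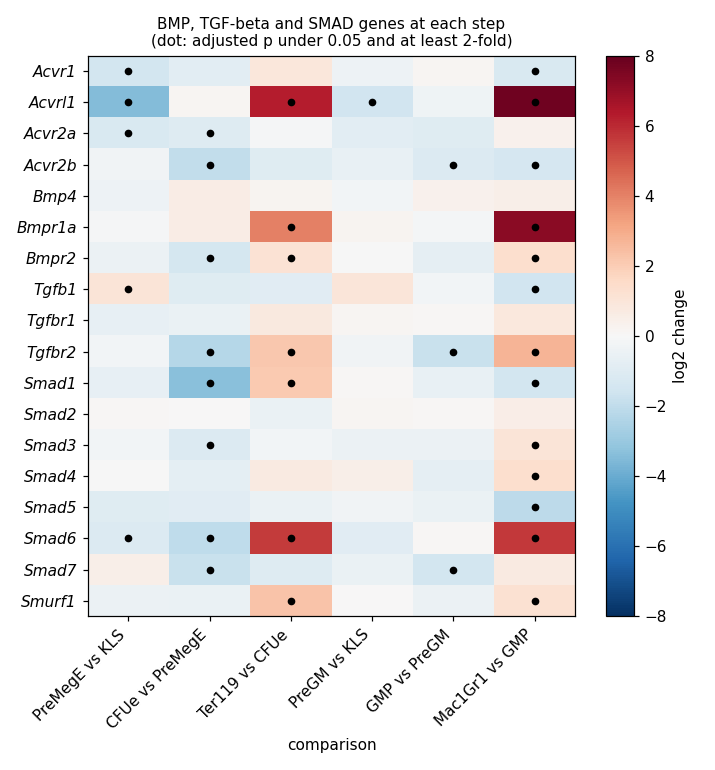
Log2 change of the 18 BMP, TGF-beta and SMAD genes tested at each of the 6 steps, on a colour scale from -8 to 8, with a dot where called. Smad1 (-3.33), Tgfbr2 (-2.26) and Smad6 (-2.02) were lower at the step from PreMegE to CFUe, and Acvrl1, Bmpr1a and Smad6 were higher at the third step of either branch. A group below background has only a bound, which the colour does not show.

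The partners of E proteins in the TAL1 complex were measured through 11 of 12 genes, with no matched probe for Tal1 itself. In CFUe against GMP 4 were higher and 2 lower (12.1% and 14.2% of all probes), but with spike-in scaling none was higher and 5 were lower. The cofactors Ssbp3 (2.25 ± 0.11) and Ldb1 (1.74 ± 0.16) were higher in CFUe, and the LIM protein Lmo4 (-2.68 ± 0.19) and the TAL1 relative Lyl1 (-1.38 ± 0.19) lower. In PreMegE against PreGM 3 were higher, among them Cbfa2t3 (1.76) and Ldb1 (1.34), and Lmo4 was lower (-1.63), where 5.81% of all probes were higher and 6.23% lower. In Ter119 against CFUe 3 were higher and 5 lower, with Ldb1 at -3.09 ± 0.16 and Ssbp2 at -2.09 ± 0.13. Mac1Gr1 against GMP likewise had 3 higher and 5 lower. Of all probes 57.2% and 56.7% were called at these steps, and with spike-in scaling the counts were 2 higher and 7 lower in Ter119, and 1 higher and 8 lower in Mac1Gr1. The first myeloid and first erythroid steps had 1 higher and 1 lower each, where 8.63% and 12.4% of all probes were called. With spike-in scaling either step had none higher and 3 lower. With quantile scaling the myeloid step had 1 higher and 3 lower, and the erythroid step none higher and 1 lower.

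Genes that act on the stability of Id proteins were measured through 5 of 5. Usp1, which removes ubiquitin from Id proteins, was lower at both steps at which Id transcripts rose, with a change of -1.52 ± 0.12 in Ter119 against CFUe and -2.54 ± 0.12 in Mac1Gr1 against GMP. Fzr1, an activator of the anaphase-promoting complex, rose by 2.44 ± 0.13 from CFUe to Ter119. Cops5, a subunit of the COP9 signalosome, rose by 1.12 ± 0.11 from PreMegE to CFUe, a step at which no gene of this list was called higher with quantile or spike-in scaling or with the authors' values (9.96% of all probes were higher). It fell by 1.99 ± 0.11 from CFUe to Ter119. None of the 5 was called at either first step, where 12.4% of all probes were called at the erythroid and 8.63% at the myeloid one.

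Of other helix-loop-helix and E-box factors 11 of 13 were tested. The Notch targets Hes1 and Hey1 fell at the first step of either branch, Hes1 by 3.24 ± 0.48 to PreMegE and 2.40 ± 0.48 to PreGM, and Hey1 by 2.59 ± 0.39 and 2.52 ± 0.39. The E-box repressor Zeb2 rose at the same steps, by 1.78 ± 0.11 and 1.41 ± 0.11, though with spike-in scaling no gene of this list was called higher in PreGM. Tfap4 fell at the third steps, by 2.74 ± 0.22 to Ter119 and 3.69 ± 0.22 to Mac1Gr1. Id4, the remaining Id gene, was not well above background on all arrays of any fraction and was not tested.

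Known lymphoid targets of E proteins were measured through 13 of 16. From KLS to PreMegE, Id2 fell and Tcf4 stood at -0.80 (adjusted p = 0.000798, under 2-fold). At that step 8 of the 13 were lower and none higher, where 8.86% of all probes were lower. Their median was -1.71 (-1.36 with dim genes set to their bound) against 0.13 over all probes. Dntt, the terminal transferase of early lymphoid cells, fell by 7.33 ± 0.39, the cytokine receptor Flt3 by 4.86 ± 0.26 and Gfi1 by 4.58 ± 0.63, and Il7r was at least 5.63-fold lower. From KLS to PreGM 4 were lower and none higher (6.52% of all probes lower). From PreGM to GMP, where Tcf4 was called lower, 4 were lower and 1 higher (6.36% and 4.01% of all probes), and with spike-in scaling 3 lower and 4 higher, and in the values reported Dntt was at -7.05 ± 0.39, Flt3 at -3.5 ± 0.26 and Gfi1 at 2.19 ± 0.63. At the third steps 13 of 13 were higher in Ter119 than in CFUe and 11 of 13 in Mac1Gr1 than in GMP, with 1 lower there. Of all probes 29.2% and 29.1% were higher at these steps, and with spike-in scaling the counts were 12 higher in Ter119, and 6 higher and 2 lower in Mac1Gr1. Several genes of this list are B cell markers as well, and the B cell sums of Ter119 and Mac1Gr1 are given above, so that the part of other cells in these rises was not tested.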

How the data were processed

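Each deposited scanner file gives, per spot, a linear intensity after background correction that the authors read out with Agilent Feature Extraction 10.7.1.1, and marks outlier, saturated and dim spots. The authors also deposited normalized log2 values of the same arrays (the study's methods name limma and SAM, with no settings), which served as an alternative (rank correlation with the scanner values at least 0.9998 on every array).

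The level was log2 intensity minus the 75th percentile of the array over its 43379 non-control spots. Outlier spots (80 to 283 an array) were dropped, none was saturated, and repeated spots were averaged. Tests ran on the 29526 of 41174 probes that were well above background in each array of some fraction. Symbols came from RefSeq accessions through names of GRCm38.p6, with 1 symbol for 26690 probes and several for none. The array annotation names the build mm9 and no probe coordinates are printed.

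A single two-sided limma 3.58.1 fit (R 4.3.3, with the data.table package at version 1.17.8) held a mean per fraction without a block, adjusted by Benjamini-Hochberg. Its median residual SD was 0.262 with 14 residual degrees of freedom, and the number of arrays limits the precision. Where a fraction was dim on every array, the fold is a lower bound against the higher, on each array, of its own signal and the faintest well-measured probe. In data simulated for CFUe against KLS over 29526 probes, 175 of 200 changed and 3 unchanged probes were called. Plots were made with matplotlib 3.10.9 and pandas 2.3.3 under Python 3.11.15.

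Members, lists, tests and naming rule were chosen with earlier results of these data known. Named are the 6 members, up to 4 genes per list and comparison with the largest called change, the 3 genes most like each member and sorting antigens. A gene that meets this rule is not reported here. Id4 was named after its values were seen. Alternatives were quantile and spike-in scaling (7 of 10 spike-in probes), normexp with an offset of 50, no filter, the slide (9 slides, 1 scan day) and the replicate number as blocks, the authors' log2 values, the mean of a gene's probes, no minimum fold, a fit of only the fractions compared, and omission of single arrays. A block on sex-chromosome transcripts, the other probe of a gene and a fit without Ter119 were chosen after seeing the data.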

Additional observations from a re-analysis of the deposited data

Results flagged for a closer look

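The results listed here are differences between the erythroid and the myeloid branch that passed the interaction test, given as values. At the first step, PreMegE against PreGM, Id2 was at -3.28, Tcf3 at 0.42 and Tcf4 at -0.64. At the second step the erythroid change minus the myeloid change was -4.52 for Id1, 1.09 for Tcf3 and 0.83 for Tcf4. At the third step it was 2.52 for Id1, 1.73 for Id2, 1.65 for Tcf4 and 1.32 for Tcf12. Both Id1 values are not exact in size, because CFUe replicates 2 and 3 were dim for Id1. The third step compares CFUe with Ter119, and the Ter119 arrays carried 12 of 12 granulocytic and 9 of 9 B cell markers, whose part in these differences was not tested.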

How the results depend on the processing

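Spike-in scaling moved the results most. Under it the median change of all probes ran from -1.86 (Mac1Gr1 against GMP) to 0.99 (GMP against PreGM), against -0.02 to 0.23 in the values reported, and a gene's change shifts with it. The number of the 6 genes called then was 2 for PreMegE against KLS, 1 for PreGM against KLS, 0 for GMP against PreGM, 1 for GMP against KLS, 1 for the branch difference at the second step, and 22 for neighbouring pairs. Signs turned for Id3 in Mac1Gr1 against GMP (-0.80), Tcf4 in CFUe against GMP (-1.18), and Tcf3 (-0.44) and Tcf4 (-0.70) in the second-step branch difference. With no minimum fold, 3 genes passed in PreMegE against KLS and 3 in PreMegE against PreGM. With the compared fractions alone, 2 were called in PreMegE against KLS, Id2 lower and Id3 higher. The slide as a block left 1 in GMP against PreGM and 1 in GMP against KLS, and the mean of all probes left 1 in GMP against PreGM. Normexp gave 5 at the second-step and 2 at the third-step branch difference. The block on sex-chromosome transcripts, chosen after seeing the data, gave 2 in PreMegE against PreGM. The other Tcf4 probe turned the second-step difference to -0.47. The cause of these changes was not tested.

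Leaving out each array in turn gave 1 gene called in PreMegE against KLS, 2 to 3 in CFUe against PreMegE, 4 to 5 in Ter119 against CFUe, 0 to 1 in PreGM against KLS, 1 to 2 in GMP against PreGM and 3 to 4 in Mac1Gr1 against GMP. It gave 4 in CFUe against KLS, 2 to 3 in GMP against KLS, 1 in PreMegE against PreGM, 3 in CFUe against GMP, 4 to 5 in Ter119 against Mac1Gr1, 3 to 4 at the second-step and 3 to 4 at the third-step branch difference, and 10 to 14 neighbouring pairs. The Id3 difference at the second step ranged from -0.66 without PreGM replicate 1 to 0.80 without PreGM replicate 3.

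With the replicate number as a block, all 78 changes of the 6 genes kept their direction and their call, so that 4 of 6 were called in Ter119 against CFUe as before. Samples with the same number did not deviate together (r from -0.43 to 0.37 over 63 pairs, 21 of them over 0.1, median 0), so the numbers were not taken to pair samples. Over the 15 pairs on the same slide, r ran from -0.05 to 0.4, with 8 over 0.1 and a median of 0.12. The main fit held no slide term, and the slide as a block was an alternative. For 16 called changes in 6 comparisons a slide held both fractions, and all 17 such within-slide values had the same direction.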
